A study of Mus musculus with 41 samples.

Results

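The 10 genes described here, Fosb, Fos, Jun, Junb, Egr1, Atf3, Klf2, Zfp36, Ier2 and Ier3, belong to the immediate early response genes. They were chosen by name, with earlier results of these data known, from 13283 genes with a probe in either fraction. Their counts beside the share of all genes are therefore descriptions and no independent support. Each gene was read through its 1 probe on the array. Immediate early genes are transcribed within minutes of a stimulus without new protein synthesis, because the factors that switch them on, such as serum response factor and CREB, are already present and are activated by kinases. Most of their products are transcription factors or regulators of RNA decay that shape the later response, and their transcripts are short-lived. They answer growth factors, cytokines and stress, and also enzymatic digestion and sorting of tissue, which makes their spread between arrays of a group of interest in a digested organ.

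RNA was measured on 41 Illumina arrays from thymus of male C57Bl/6 mice. The thymus was digested to single cells, and thymic epithelial cells (TEC, CD45-EpCAM+) and non-epithelial stromal cells (nonTEC, CD45-EpCAM-) were sorted by flow cytometry. TEC were taken 4, 7 and 20 days after surgical castration (CxD4, CxD7, CxD20) or sham castration (ShCxD4, ShCxD7, ShCxD20) of middle-aged mice, and from unoperated middle-aged mice (9 to 12 months old) and unoperated young mice (5 to 6 weeks old). The nonTEC groups were the same without day 20. Each group had 3 arrays except nonTEC ShCxD7, which had 2, which gave 24 TEC arrays in 8 groups and 17 nonTEC arrays in 6 groups. The study asked which genes change in thymic stroma with age and while the thymus regenerates after castration. Whether replicate arrays stand for different mice is not stated in the labels, and p-values therefore measure only how far these arrays spread, which may be technical.

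Values are log2 intensities as normalized by the authors, and differences are on the same log2 scale, with the first-named group minus the second. Array medians were 6.68 in TEC and lay between 6.81 and 6.82 in nonTEC. The fractions were normalized separately, so a level in TEC stands beside a level in nonTEC as a description with no test. Tests were made in limma over all genes whose mean passed 6.73 in at least 1 group, 8195 in TEC and 7771 in nonTEC, with Benjamini-Hochberg adjustment and a threshold of 0.05. In a sorted population, fewer cells of a type and less RNA per cell cannot be told apart. Thymic epithelial markers such as keratins, 9 genes in TEC and 7 in nonTEC, averaged between 11.33 and 12.00 on the TEC arrays, against between 6.69 and 9.19 on the nonTEC arrays. Pan-leukocyte genes were also read in TEC, which were sorted as CD45-negative, at 9.25 to 10.84 on average, and their values stand beside the results below.

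The 9 genes other than Ier2 were bright. On each TEC array their percentile was taken among all genes with a probe. The medians over the arrays lay between the 90.5th percentile (Klf2) and the 99.6th (Egr1 and Zfp36), and 6 of them lay above the 98th. Zfp36 reached 14.58 on a TEC array, where the highest value of any probe was 14.67, so that differences at the top of the scale may be compressed. Ier2 was read by a dim probe, whose median was 5.80 in TEC and 6.82 in nonTEC. It passed the filter in 2 of 8 TEC groups, both of day 20, and in 3 of 6 nonTEC groups, so its tested values depend on those groups. Outside day 20 it lay between 4.76 and 5.91 on the TEC arrays, below the filter, and where day 20 is set against other TEC groups its levels are given as a description with no test. The other 9 passed in every group of both fractions.

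**Figure D1:**
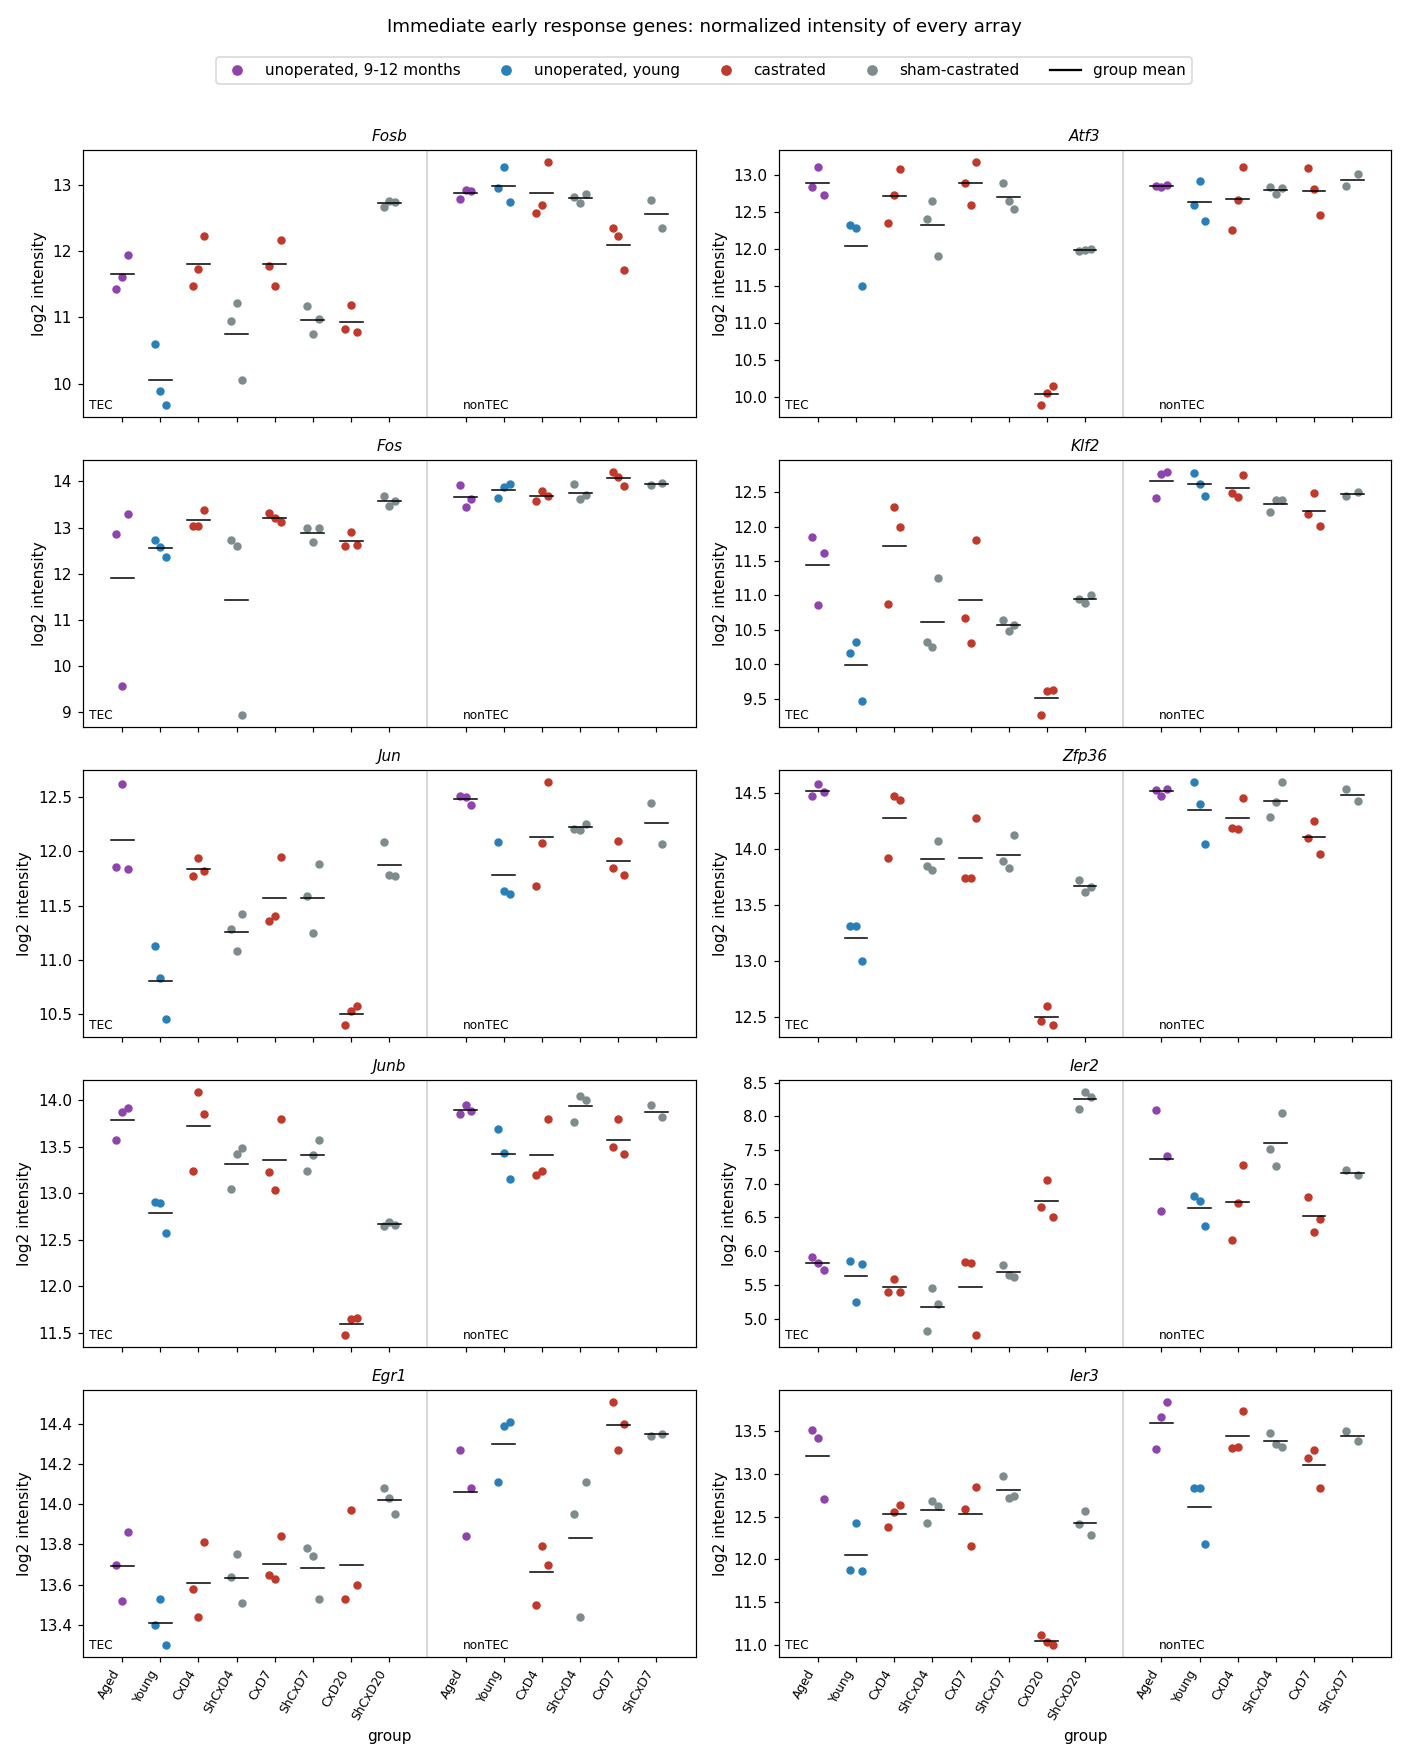
Level of each of the 10 genes (log2 intensity) on every array, 1 panel a gene, with groups along the horizontal axis, a point for each array and a line at each group mean. Most genes were lowest in TEC CxD20, where Atf3 lay between 9.89 and 10.15, and Fos lay far below its other values on 1 unoperated middle-aged TEC array (9.58) and 1 TEC ShCxD4 array (8.95).

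At day 20, 8 of the 10 genes were lower in TEC of castrated than of sham-castrated mice, and none was higher. The 8 include the dim Ier2, which entered the TEC tests only through its day-20 groups. Over all 8195 genes tested, 22.5% passed the threshold and 9.4% were lower. The median difference of the 10 genes was -1.38, against -0.04 over all genes tested. For 9 of the 10 genes every castrated array lay below every sham array, which held for 30.9% of all genes.

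Among the subunits of AP-1, the dimeric factor formed by Fos and Jun proteins, Fosb lay at 10.82, 11.18 and 10.78 in CxD20 TEC, against 12.66, 12.75 and 12.74 in ShCxD20 TEC. The difference of -1.79 ± 0.27 (SE, limma adjusted p = 0.000139, n = 3 each) was a 3.45-fold lower intensity. Jun, the main partner of Fos proteins, lay at 10.40, 10.53 and 10.57 in CxD20, against 12.09, 11.78 and 11.77 in ShCxD20 (difference -1.38 ± 0.21, adjusted p = 0.000143). The groups lay clearly apart for both genes. Junb, a Jun relative that can oppose Jun within AP-1, lay at 11.48, 11.65 and 11.66 in CxD20, against 12.65, 12.69 and 12.66 in ShCxD20 (difference -1.08 ± 0.19, adjusted p = 0.000546). Fos did not pass, at 12.61, 12.91 and 12.62 in CxD20 against 13.69, 13.46 and 13.57 in ShCxD20 (difference -0.86 ± 0.78, adjusted p = 0.488). Its day-20 arrays did not overlap, and its large standard error came with 2 arrays of other groups on which Fos was low. Without those 2 arrays the same difference had a standard error of 0.13 and an adjusted p of 0.000112 in limma. The 2 arrays were picked for their low Fos after the data were seen. The smaller error follows from that choice, which gives no support to a lower Fos. With no array picked by its Fos, it passed in limma when only the day-20 arrays were fitted (-0.86 ± 0.10, adjusted p = 1.2e-06). That fit also lacks the 2 arrays. Fos passed with array weights too (-0.82 ± 0.26, adjusted p = 0.00989), whose estimation did not fully converge. Of 17 alternative settings, these 3 included, Fos did not pass in 14. Against unoperated controls its difference was 0.80 (adjusted p = 0.403).

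Atf3, a stress-induced factor of the CREB family that often represses its targets, fell furthest. It lay at 9.89, 10.05 and 10.15 in CxD20, against 11.98, 11.99 and 12.00 in ShCxD20, a difference of -1.96 ± 0.22 (adjusted p = 1.2e-05) or 3.90-fold. The 3 sham arrays spanned 0.0276, and all castrated arrays lay far below them. Klf2, a Krüppel-like zinc finger factor known from endothelium and T cells, lay at 9.27, 9.62 and 9.63 in CxD20, against 10.95, 10.89 and 11.00 in ShCxD20 (difference -1.44 ± 0.38, adjusted p = 0.00878). Egr1, a zinc finger factor induced by growth factors, lay at 13.53, 13.97 and 13.60 in CxD20, against 14.08, 14.03 and 13.95 in ShCxD20. Its difference of -0.32 ± 0.12 did not pass (adjusted p = 0.0618), and its groups overlapped on 1 castrated array. Without that array, castrated array 2, Egr1 passed (-0.46, adjusted p = 0.0132). With all day-20 arrays kept, it passed when only the arrays compared were fitted (-0.32, adjusted p = 0.0155) and with array weights (-0.26, adjusted p = 0.0137). Against unoperated controls it did not pass (0.0085, adjusted p = 0.958).

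Zfp36, which encodes tristetraprolin, a protein that binds AU-rich elements and speeds the decay of cytokine mRNAs, lay at 12.46, 12.60 and 12.43 in CxD20, against 13.72, 13.62 and 13.66 in ShCxD20 (difference -1.17 ± 0.15, adjusted p = 2.8e-05). Ier3, a stress-induced regulator of cell survival, lay at 11.11, 11.03 and 11.00 in CxD20, against 12.41, 12.56 and 12.29 in ShCxD20 (difference -1.37 ± 0.19, adjusted p = 6.9e-05). Ier2, a nuclear protein of the same early response, lay at 6.65, 7.06 and 6.51 in CxD20, against 8.11, 8.36 and 8.28 in ShCxD20 (difference -1.51 ± 0.26, adjusted p = 0.000361). All 3 genes were separated between the groups. Against unoperated middle-aged TEC in place of sham, the same castrated arrays had lower Atf3, Zfp36, Ier3, Junb, Jun, Klf2 and Fosb, while Ier2 lay between 6.51 and 7.06 in CxD20, against between 5.72 and 5.91 in unoperated TEC, where it was below the filter.

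Other immediate early genes moved with them. Of 37 such genes tested, 11 were lower and 3 higher in CxD20 than in ShCxD20 TEC (median -0.55). The lower ones included Socs3, an inhibitor of cytokine signalling (-1.59 ± 0.20), Errfi1, an inhibitor of the EGF receptor (-1.56 ± 0.20), Nfkbiz, a nuclear IκB protein (-1.51 ± 0.18), Egr2 (-1.33 ± 0.22), Dusp6, a phosphatase of ERK (-1.26 ± 0.17) and Zfp36l1 (-0.74 ± 0.13). The higher ones, named after their values were seen, were Dusp2 (0.89 ± 0.26), the chemokine gene Cxcl2 (0.84 ± 0.23) and Arc (0.72 ± 0.21). Of 8 genes tested for upstream factors and kinases, Srf (-1.04 ± 0.19) and Mapk9 (-0.57 ± 0.14) were lower and none was higher. Of 12 heat shock genes tested, 1 was lower, Hspb8 (-0.55 ± 0.18), and none was higher.

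Markers of other cells moved in the opposite direction at day 20. The mean of 5 pan-leukocyte genes lay between 10.50 and 10.73 in CxD20, against between 9.32 and 9.63 in ShCxD20, with 4 of 5 higher. The mean of 5 myeloid genes lay between 10.24 and 10.45 in CxD20, against between 8.81 and 9.16 in ShCxD20, with 4 of 5 higher. Both B lineage genes tested, with means between 7.25 and 7.73 in CxD20 against between 6.08 and 6.43 in ShCxD20, and both red cell genes tested were higher too. Endothelial genes, whose cells express Klf2, had means between 6.41 and 6.59 in CxD20 and between 6.35 and 6.55 in ShCxD20, and none of 6 passed. The part of these signals in the lower immediate early transcripts was not tested.

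**Figure D2:**
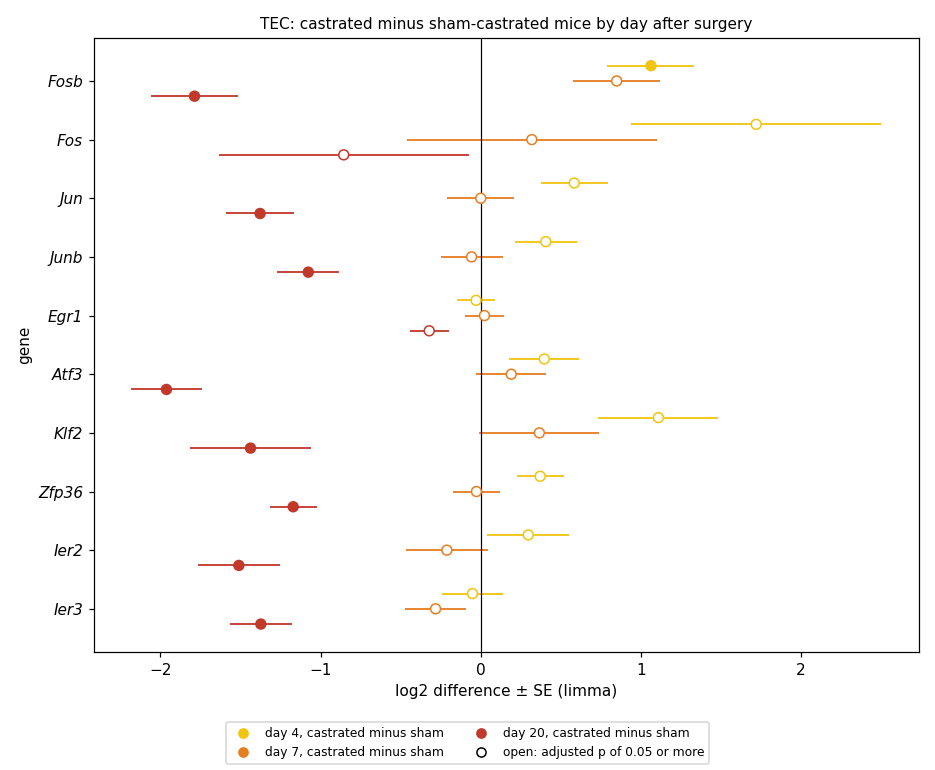
Castrated minus sham difference in TEC (log2, bars ± SE from limma, filled points past the threshold) for each of the 10 genes at days 4, 7 and 20. At day 20 the values lay between -1.96 (Atf3) and -0.32 (Egr1), while at day 7 no gene passed the threshold.

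Earlier after castration none of the 10 genes passed as lower in TEC. At day 4, Fosb was higher in castrated TEC at 11.47, 11.73 and 12.22, against 10.95, 11.22 and 10.06 in sham TEC. Its difference of 1.06 ± 0.27 was the only one of the 10 to pass (adjusted p = 0.0374), where 3.62% of all genes passed and 2.33% were higher. The groups did not overlap, and 1 sham array lay well below the other sham arrays. The pan-leukocyte mean lay between 9.25 and 10.13 in CxD4 TEC, against between 10.37 and 10.72 in ShCxD4 TEC, with 1 of 5 genes lower, and its part was not tested. Fos and Jun also lay higher on every castrated than on every sham array, as did 14.3% of all genes, without passing (Fos 1.72 ± 0.78, adjusted p = 0.173, and Jun 0.58 ± 0.21, adjusted p = 0.103). Klf2 lay at 10.88, 12.29 and 12.00 in CxD4, against 10.33, 10.25 and 11.25 in ShCxD4 (difference 1.11 ± 0.38, adjusted p = 0.0871), and its groups overlapped.

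The Fosb call at day 4 depended on single arrays. It did not pass without sham array 3 (0.72, adjusted p = 0.157), without castrated array 2 (1.10, adjusted p = 0.151) or without castrated array 3 (0.86, adjusted p = 0.182). Without castrated array 1, where the mean of the 10 genes was lowest of that group, Junb, Klf2 and Zfp36 passed beside Fosb, with differences of 0.65, 1.53 and 0.55. At the same day 1 of 37 other immediate early genes passed, Tnfaip3 (2.59 ± 0.71).

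At day 7, none of the 10 genes passed in TEC, where 0.171% of all genes did. In limma 1079 of 8195 genes tested had an unadjusted p under 0.05, and 1 of the 10 did. That gene was Fosb, at 11.78, 11.47 and 12.17 in CxD7 against 11.17, 10.74 and 10.97 in ShCxD7 (difference 0.85 ± 0.27, adjusted p = 0.195). Its arrays did not overlap, nor did those of Fos, where 14% of all genes were apart in that direction. The other 9 differences lay between -0.28 (Ier3) and 0.37 (Klf2), and none of the 37 other immediate early genes passed.

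The castration difference at day 20 was set against the mean of those at days 4 and 7, a comparison chosen after the data were seen. It was lower at day 20 for Fosb, Atf3, Klf2, Jun, Zfp36, Junb and Ier3, where 22.9% of all genes passed and 10.7% were lower. Ier2 is left out here, since it passed the filter only through its day-20 groups and lay below it at days 4 and 7. Pan-leukocyte genes were higher in this comparison in 3 of 5 tested, myeloid genes in 2 of 5 and B lineage genes in 2 of 2, and their part was not tested. The largest gaps were those of Fosb (-2.74 ± 0.33, adjusted p = 2.6e-05), Atf3 (-2.26 ± 0.27, adjusted p = 2.1e-05) and Klf2 (-2.18 ± 0.46, adjusted p = 0.00243). Fos (-1.88 ± 0.96, adjusted p = 0.165) and Egr1 (-0.32 ± 0.15, adjusted p = 0.127) did not pass, though Egr1 did without castrated day-20 array 2 (-0.45, adjusted p = 0.0334).

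Both day-20 groups of TEC differed widely from the earlier ones. In sham TEC, 57.8% of all genes differed between day 20 and the mean of days 4 and 7. Among the 10, Fosb (1.86), Jun (0.46) and Egr1 (0.36) were higher at day 20, and Junb (-0.70) and Atf3 (-0.52) were lower in limma. Ier2 lay between 8.11 and 8.36 in ShCxD20, against between 4.81 and 5.46 in ShCxD4 and between 5.62 and 5.79 in ShCxD7, both below the filter. Markers of other cells were lower at day 20 in the same arrays, in 3 of 3 thymocyte, 3 of 5 pan-leukocyte, 3 of 5 myeloid, 2 of 2 B lineage, 2 of 2 red cell and 3 of 6 endothelial genes tested. The pan-leukocyte mean lay between 9.32 and 9.63 in ShCxD20, against between 10.37 and 10.72 in ShCxD4 and between 10.05 and 10.24 in ShCxD7. The thymocyte mean lay between 5.44 and 5.96 in ShCxD20, against between 6.89 and 10.95 in ShCxD4 and between 7.20 and 7.45 in ShCxD7. The Jun call was lost without ShCxD4 array 2, ShCxD7 array 2 or any ShCxD20 array (0.36 to 0.52, adjusted p between 0.0528 and 0.164), and the Atf3 call without ShCxD4 array 2, ShCxD7 array 1 or any ShCxD20 array (-0.53 to -0.44, adjusted p between 0.0525 and 0.0656). Fos passed without ShCxD4 array 1 (1.74) or 2 (1.70). In castrated TEC, 48.2% of all genes differed. There Atf3 (-2.78), Junb (-1.95), Klf2 (-1.82), Zfp36 (-1.61), Ier3 (-1.48), Jun (-1.21) and Fosb (-0.88) were lower at day 20. Ier2 lay between 6.51 and 7.06 in CxD20, against between 5.40 and 5.59 in CxD4 and between 4.76 and 5.84 in CxD7, both below the filter. Of the markers tested there, 3 of 5 pan-leukocyte genes were higher, and 2 of 3 thymocyte, 2 of 6 endothelial and 4 of 7 pericyte and smooth muscle genes were lower. The part of these markers in the changes of the 10 genes was not tested. The castration difference at day 20 shares its arrays with both comparisons. Whether the day-20 arrays were handled apart from the others is not given in the sources used here, and time after surgery and such a difference cannot be told apart.

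With age, 7 of the 10 genes were higher in TEC and none was lower. Over all genes tested, 18.8% passed and 11.9% were higher. The same 7 genes lay higher on every middle-aged than on every young array, which 17.5% of all genes did, and the median difference was 1.07 against 0.01 over all genes.

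Zfp36 lay at 14.48, 14.58 and 14.51 in middle-aged TEC, against 13.31, 13.31 and 13.00 in young TEC (difference 1.31 ± 0.15, adjusted p = 2.0e-05, n = 3 each). Jun lay at 11.86, 12.62 and 11.84 in middle-aged TEC, against 11.13, 10.83 and 10.45 in young TEC (difference 1.30 ± 0.21, adjusted p = 0.000496). Ier3 lay at 13.51, 13.42 and 12.70 in middle-aged TEC, against 11.88, 12.43 and 11.86 in young TEC (difference 1.15 ± 0.19, adjusted p = 0.000647). In all 3 genes the middle-aged arrays were the higher ones, and the Zfp36 arrays of middle-aged mice were nearly identical. Fosb lay at 11.42, 11.60 and 11.94 in middle-aged TEC, against 10.60, 9.89 and 9.68 in young TEC, a 3.03-fold difference (adjusted p = 0.000738). Junb lay at 13.57, 13.88 and 13.92 in middle-aged TEC, against 12.91, 12.90 and 12.57 in young TEC (difference 0.99 ± 0.19, adjusted p = 0.00202).

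Klf2 and Atf3 passed by less. Klf2 lay at 11.85, 10.86 and 11.62 in middle-aged TEC, against 10.17, 10.33 and 9.47 in young TEC, a 2.74-fold difference (adjusted p = 0.0124). Atf3 lay at 12.84, 13.12 and 12.74 in middle-aged TEC, against 12.33, 12.29 and 11.50 in young TEC (difference 0.86 ± 0.22, adjusted p = 0.0117). Neither gene overlapped between the ages, and for both young array 3 was the lowest. Without young array 3, Atf3 (0.59, adjusted p = 0.0722) and Klf2 (1.19, adjusted p = 0.0631) did not pass, nor did Atf3 without middle-aged array 2 (0.75, adjusted p = 0.0519). Egr1 (0.28 ± 0.12, adjusted p = 0.105) and the dim Ier2 (0.18 ± 0.26, adjusted p = 0.641) did not pass.

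The sign of the Fos difference rested on 1 array. It lay at 12.87, 9.58 and 13.30 in middle-aged TEC, against 12.73, 12.58 and 12.36 in young TEC. Its difference was -0.64 ± 0.78 (adjusted p = 0.591). Without the 2 TEC arrays of low Fos, middle-aged array 2 and ShCxD4 array 3, it was 0.53 ± 0.15 (adjusted p = 0.0251), a setting chosen after the data were seen.

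Middle-aged sham arrays of all days, in place of the unoperated ones, gave smaller differences from young TEC for the 7 genes above, and larger ones for Egr1 and Ier2. Zfp36 (0.63), Fosb (1.42), Jun (0.76) and Ier3 (0.55) still passed, Egr1 (0.37) passed there, and Junb (0.34, adjusted p = 0.121), Klf2 (0.72, adjusted p = 0.0918) and Atf3 (0.30, adjusted p = 0.241) did not. Ier2 (0.73) had sham levels above the filter at day 20 only. Set against unoperated middle-aged TEC directly, sham TEC averaged over the 3 days had lower Zfp36 (-0.68, adjusted p = 0.0085), Junb (-0.65, adjusted p = 0.0240) and Ier3 (-0.60, adjusted p = 0.0309), where 5.58% of all genes passed and 3.71% were lower. The unoperated arrays are the same as in the ageing comparison. Leaving out unoperated array 2 or 3 took Junb out (-0.61, adjusted p = 0.0784, and -0.59, adjusted p = 0.0526). Ier3 missed the threshold without unoperated array 1 or 2, ShCxD4 array 1, or ShCxD20 array 1 or 3 (-0.60 to -0.46, adjusted p between 0.0506 and 0.105). Jun passed without unoperated array 1 (-0.66) or 3 (-0.67), and Atf3 without ShCxD4 array 2 (-0.61). In nonTEC, 0 of the 10 passed for sham surgery, where 0.283% of all genes passed. In limma 0 of the 10 and 1616 of 7771 genes tested had an unadjusted p under 0.05.

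Of the other 37 immediate early genes tested, 11 were higher and 1 lower in middle-aged than in young TEC (median 0.22). The higher ones of smallest p were Nfkbiz (1.29 ± 0.18), Socs3 (1.40 ± 0.20), Zfp36l1 (0.80 ± 0.13), Errfi1 (1.17 ± 0.20), Dusp6 (0.95 ± 0.17) and Srf (0.84 ± 0.19), and the lower one, named after its value was seen, was Cxcl2 (-0.78 ± 0.23). Upstream of these genes, the JNK kinase genes Mapk8 (0.89 ± 0.20) and Mapk9 (0.74 ± 0.14) were also higher among 8 tested. Of 7 partner factors and repressors, Atf2, which dimerizes with Jun, was higher (0.96 ± 0.15). None of 12 heat shock genes passed. The mean of 5 pan-leukocyte genes lay between 9.57 and 9.80 in middle-aged TEC, against between 10.55 and 10.84 in young TEC, with 3 of 5 lower, and that of 5 myeloid genes lay between 8.34 and 9.38, against between 10.15 and 10.36, with 2 of 5 lower. Their part in the differences of the 10 genes was not tested.

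**Figure D3:**
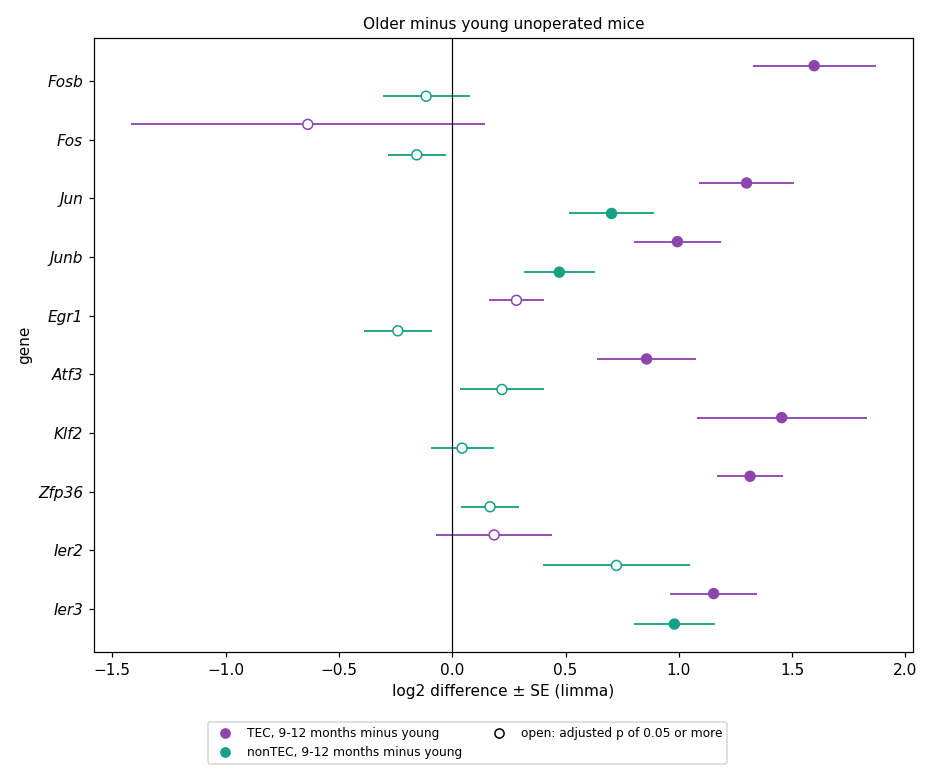
Middle-aged minus young difference (log2, bars ± SE from limma, filled points past the threshold) for each of the 10 genes in TEC and in nonTEC. Fosb differed by 1.60 in TEC and by -0.12 in nonTEC, while Ier3 was higher in both (1.15 and 0.98).

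In nonTEC, 3 of the 10 genes were higher with age and none was lower, where 32.4% of all genes passed and 16.8% were higher. Ier3 lay at 13.29, 13.66 and 13.84 in middle-aged nonTEC, against 12.83, 12.84 and 12.18 in young nonTEC (difference 0.98 ± 0.18, adjusted p = 0.000683). Jun lay at 12.51, 12.50 and 12.43 in middle-aged nonTEC, against 12.09, 11.63 and 11.61 in young nonTEC (difference 0.70 ± 0.19, adjusted p = 0.00874). Junb lay at 13.85, 13.95 and 13.89 in middle-aged nonTEC, against 13.69, 13.43 and 13.16 in young nonTEC (difference 0.47 ± 0.16, adjusted p = 0.0272). All 3 lay higher on every middle-aged than on every young array, as did 20.8% of all genes. The Junb call was lost without middle-aged array 1 (0.50, adjusted p = 0.0503) or 2 (0.45, adjusted p = 0.0635), or without young array 2 (0.47, adjusted p = 0.0608) or 3 (0.34, adjusted p = 0.147). Ier2, whose mean in young nonTEC lay below the filter (0.72 ± 0.32, adjusted p = 0.0940), passed only when middle-aged array 2 was left out (1.11, adjusted p = 0.0130). The other 6 differences lay between -0.24 (Egr1) and 0.22 (Atf3).

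Other immediate early genes moved with age in nonTEC as well, with 15 of 40 tested higher and 3 lower. The 6 of smallest p were Plk3 (1.12 ± 0.21), Cebpd (1.02 ± 0.20), Sik1 (1.99 ± 0.41), Errfi1 (0.75 ± 0.16), Nfkbiz (0.74 ± 0.16) and Fosl2 (1.15 ± 0.25). The lower 3, named after their values were seen, were Rhob (-0.81 ± 0.18), Dusp2 (-1.24 ± 0.31) and Dusp5 (-0.52 ± 0.17). Heat shock genes were higher in 5 of 14 tested, Hspb8, Hsph1, Bag3, Hspb1 and Hspa1b, and lower in none. The mean of 5 pan-leukocyte genes lay between 7.40 and 8.38 in middle-aged nonTEC, against between 9.91 and 10.15 in young nonTEC, with all 5 lower, and all 6 thymocyte genes tested were lower. Their part was not tested.

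The ageing difference itself was compared between the fractions. It was larger in TEC than in nonTEC for Fosb (by 1.71 ± 0.36, adjusted p = 0.0018), Klf2 (by 1.41 ± 0.44, adjusted p = 0.0329) and Zfp36 (by 1.15 ± 0.20, adjusted p = 0.000363), and for no other of the 10, where 11.2% of all genes passed and 7.78% were larger in TEC. In nonTEC these 3 genes lay high at both ages. Klf2 was read at 12.42, 12.76 and 12.79 in middle-aged nonTEC and at 12.77, 12.62 and 12.45 in young nonTEC, above all TEC arrays of either age. The Klf2 call was lost when any 1 of 5 arrays was left out, with differences between 1.15 and 1.41 and adjusted p between 0.0540 and 0.109. Those arrays were young array 3 and middle-aged array 1 of TEC, middle-aged array 1 of nonTEC, and young arrays 1 and 2 of nonTEC. It was also lost without the 6 day-20 TEC arrays (1.41, adjusted p = 0.0563). Markers differed between the fractions in the same comparison, with 4 of 4 B lineage, 2 of 5 pan-leukocyte and 4 of 9 thymic epithelial genes larger in TEC and 1 of 9 thymic epithelial genes smaller, and their part was not tested.

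After castration none of the 10 genes passed in nonTEC. At day 4, 0 of 10 passed in limma, against 6.31% of all genes. An unadjusted p under 0.05 was found for 2 of the 10, and for 1733 of 7771 genes tested. The nearest was Junb, at 13.20, 13.24 and 13.80 in CxD4 against a range of 13.77 to 14.05 in ShCxD4 (difference -0.53 ± 0.16, adjusted p = 0.0508). Its groups overlapped through castrated array 3, on which 8 of the 10 genes were the highest of their group, and without it Junb (-0.72, adjusted p = 0.00481) and Ier2 (-1.16, adjusted p = 0.0391) passed. Junb also passed without sham array 1 (-0.61, adjusted p = 0.0481). Markers of other cells were higher in the same castrated arrays, in 5 of 7 thymic epithelial, 5 of 6 thymocyte and 4 of 5 pan-leukocyte genes tested. The pan-leukocyte mean lay between 8.08 and 9.66 in CxD4 nonTEC, against between 7.16 and 7.59 in ShCxD4 nonTEC. The thymic epithelial mean lay between 7.75 and 8.41 in CxD4 nonTEC, against between 6.70 and 6.98 in ShCxD4 nonTEC, and the thymocyte mean between 7.84 and 9.73, against between 6.91 and 7.15. At day 7, 0 of 10 passed, against 0.438% of all genes. In limma 2 of the 10 and 799 of 7771 genes tested had an unadjusted p under 0.05. Junb, Zfp36, Ier2 and Ier3 lay lower on all 3 castrated than on both sham arrays, which 15.3% of all genes did.

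Between the fractions, the castration difference at day 4 was larger in TEC for Junb (by 0.94 ± 0.26, adjusted p = 0.0255), where 9.13% of all genes passed and 5.69% were larger in TEC. In the same comparison 5 of 5 pan-leukocyte, 3 of 9 thymic epithelial and 1 of 5 thymocyte genes tested were lower in TEC than in nonTEC by their castration difference, and their part was not tested. That call was lost when any 1 of 7 arrays was left out, with differences between 0.75 and 0.91 and adjusted p between 0.0578 and 0.103. They were ShCxD4 array 1 and CxD4 arrays 2 and 3 of TEC, and CxD4 arrays 1 and 2 and ShCxD4 arrays 2 and 3 of nonTEC. Without TEC CxD4 array 1, Fosb (1.16), Klf2 (1.31) and Zfp36 (0.71) passed, without nonTEC CxD4 array 3 Fosb (1.23), Jun (0.93) and Ier2 (1.46, below the filter in all 4 groups but ShCxD4 nonTEC) did, and without TEC ShCxD4 array 2 Fosb did (1.23). At day 7 none of the 10 passed, where 0.0236% of all genes did. In limma 1 of the 10 and 642 of 8487 genes tested had an unadjusted p under 0.05.

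Across the 8 TEC groups, Fosb, Jun, Junb, Egr1, Atf3, Klf2, Zfp36 and Ier3 differed by limma's F test, where 72.9% of all genes did. Fos did not pass, and Ier2 is left out, since it entered this test only through its day-20 groups. Across the 6 nonTEC groups Egr1, Fosb, Ier2, Ier3 and Junb passed, a share near the 39.4% of all genes that did. Ier2 entered this F test through 3 groups above the filter. It did not pass with no filter on dim probes (adjusted p = 0.0509), nor when any of many single arrays was left out. Fosb did not pass without CxD7 array 3 (adjusted p = 0.0708). Jun, Fos, Klf2 and Zfp36 each passed when certain single arrays were left out. Over the 6 groups that both fractions have, the span of the group means was wider in TEC for 8 of the 10 genes, Fos with its low arrays included. The share of all genes with a wider span in TEC was not computed, so this count is not a trait of these genes. The median residual SD over all genes tested was also larger in TEC (0.272 against 0.220 in nonTEC). The span of the group means was 1.31 in TEC against 0.41 in nonTEC for Zfp36, 1.75 against 0.89 for Fosb and 0.86 against 0.31 for Atf3. Egr1 (0.30 in TEC and 0.73 in nonTEC) and Ier2 (0.65 in TEC and 1.09 in nonTEC) were the other way round. With the day-20 groups, which only TEC have, the TEC span of Atf3 was 2.87.

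TEC CxD20 had the lowest mean of Jun, Junb, Atf3, Klf2, Zfp36 and Ier3, and unoperated middle-aged TEC had the highest mean of Jun, Junb, Atf3, Zfp36 and Ier3. TEC ShCxD20 had the highest mean of Fosb, Fos, Egr1 and Ier2. The order of Zfp36 in TEC, high to low, was middle-aged (14.52 ± 0.05), CxD4 (14.28 ± 0.31), ShCxD7 (13.95 ± 0.16), CxD7 (13.92 ± 0.32), ShCxD4 (13.91 ± 0.14), ShCxD20 (13.67 ± 0.05), young (13.21 ± 0.18) and CxD20 (12.50 ± 0.09), as mean ± SD of 3 arrays. Middle-aged and CxD4 TEC met at 14.48, the arrays of the 4 groups of days 4 and 7 overlapped, and ShCxD20, young and CxD20 TEC each lay apart from the group above. The order of Atf3 was middle-aged (12.90 ± 0.20), CxD7 (12.89 ± 0.29), CxD4 (12.72 ± 0.36), ShCxD7 (12.70 ± 0.18), ShCxD4 (12.32 ± 0.37), young (12.04 ± 0.47), ShCxD20 (11.99 ± 0.01) and CxD20 (10.03 ± 0.13). Neighbours down to ShCxD20 overlapped in their arrays, and CxD20 lay apart.

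Castrated day-20 TEC was also set against young TEC, a comparison chosen after the data were seen, in which 42.2% of all genes passed. Atf3 (-2.01), Junb (-1.20), Ier3 (-1.01) and Zfp36 (-0.71) were lower in CxD20 than in young TEC, and Fosb (0.87) was higher. Ier2 lay between 6.51 and 7.06 in CxD20, against between 5.24 and 5.86 in young TEC, where it was below the filter. Both red cell genes tested and 3 of 7 pericyte and smooth muscle genes were lower there, 3 of 9 thymic epithelial genes were higher, and their part was not tested. Jun (-0.30), Klf2 (-0.48), Fos (0.16) and Egr1 (0.29) did not pass. Fosb missed the threshold without young array 2 (0.79, adjusted p = 0.0593) or 3 (0.68, adjusted p = 0.0843) or without castrated array 2 (0.74, adjusted p = 0.0700), and Egr1 passed without castrated array 1 (0.37, adjusted p = 0.0338).

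The spread between arrays of a group was close to that of all genes tested, which are of any brightness. Genes as bright as most of the 10 were not set beside them. In TEC the residual SD about the group means had a median of 0.280 over the 10 genes and of 0.272 over all genes tested, and 6 of 10 lay above the median gene. Without the 4 TEC arrays said to stand apart in an earlier analysis, 8 of 10 did. In nonTEC these medians were 0.233 and 0.220, with 5 of 10 above.

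Single genes differed widely. Fos had a residual SD of 1.06 in TEC, above 98.9% of all genes, while Egr1 (0.150) and Zfp36 (0.190) were among the steadier ones, above 9.68% and 21.8%. Klf2 (0.502) lay above 86.9% in TEC, and the dim Ier2 (0.458) above 94.7% in nonTEC. The spread of Fos rested on middle-aged array 2 and ShCxD4 array 3, where it lay over 3 log2 units below the other arrays of its group. On middle-aged array 2, 95 genes were that far below both other arrays, and on ShCxD4 array 3 there were 14, with Fos the only member among them on either. Fosb, Jun and Junb were not low together with Fos on middle-aged array 2, at 11.60, 12.62 and 13.88. On ShCxD4 array 3, Fosb lay at 10.06, against 10.95 and 11.22 on the other sham arrays, and Atf3 at 11.91, against 12.41 and 12.65, so both were low there with Fos, while Jun, Junb, Klf2 and Zfp36 lay above their group means.

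Groups also differed in spread. The median SD of the 10 genes was 0.148 in CxD20 TEC, where it was 0.138 over all genes, and 0.0607 in ShCxD20 TEC, where it was 0.119 over all genes. It was above that of all genes in CxD7 TEC (0.338 against 0.184), young TEC (0.333 against 0.183), CxD4 nonTEC (0.291 against 0.177) and young nonTEC (0.264 against 0.162), among others. It was below that of all genes in middle-aged TEC (0.231 against 0.394) and middle-aged nonTEC (0.140 against 0.278), among others. Middle-aged TEC was the group whose arrays were least alike over all genes (lowest correlation 0.80).

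Deviations from the group mean tended to be shared between the 10 genes. The median correlation of these deviations over the 45 pairs was 0.27 across the 24 TEC arrays, with 30 pairs positive, and 0.51 across the 17 nonTEC arrays, with 34 positive, while the median over all pairs of genes tested was 0.01 in TEC and 0.0047 in nonTEC. Junb and Zfp36 were the closest pair in both fractions (0.87 in TEC and 0.88 in nonTEC). The lowest values were those of Fos with Jun in TEC (-0.47) and of Fos with Klf2 in nonTEC (-0.46). These correlations are descriptions over arrays that share groups, and genes of an array share its RNA and its labelling.

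Single arrays stood out across the 10 genes. The mean deviation over the 10 was -0.28 on TEC CxD4 array 1, -0.25 on young TEC array 3 and 0.23 on TEC CxD7 array 3. On TEC ShCxD4 array 3 it was also -0.25, but 0.0025 without Fos. In nonTEC it was 0.31 on CxD4 array 3 and -0.25 on CxD4 array 1. On TEC CxD7 array 3 the mean deviation of 12 heat shock genes had the opposite sign (-0.46), and on TEC ShCxD4 array 3 it had the same sign (-0.84). TEC ShCxD4 array 3 also had the highest endothelial mean of any TEC array (9.48).

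**Figure D4:**
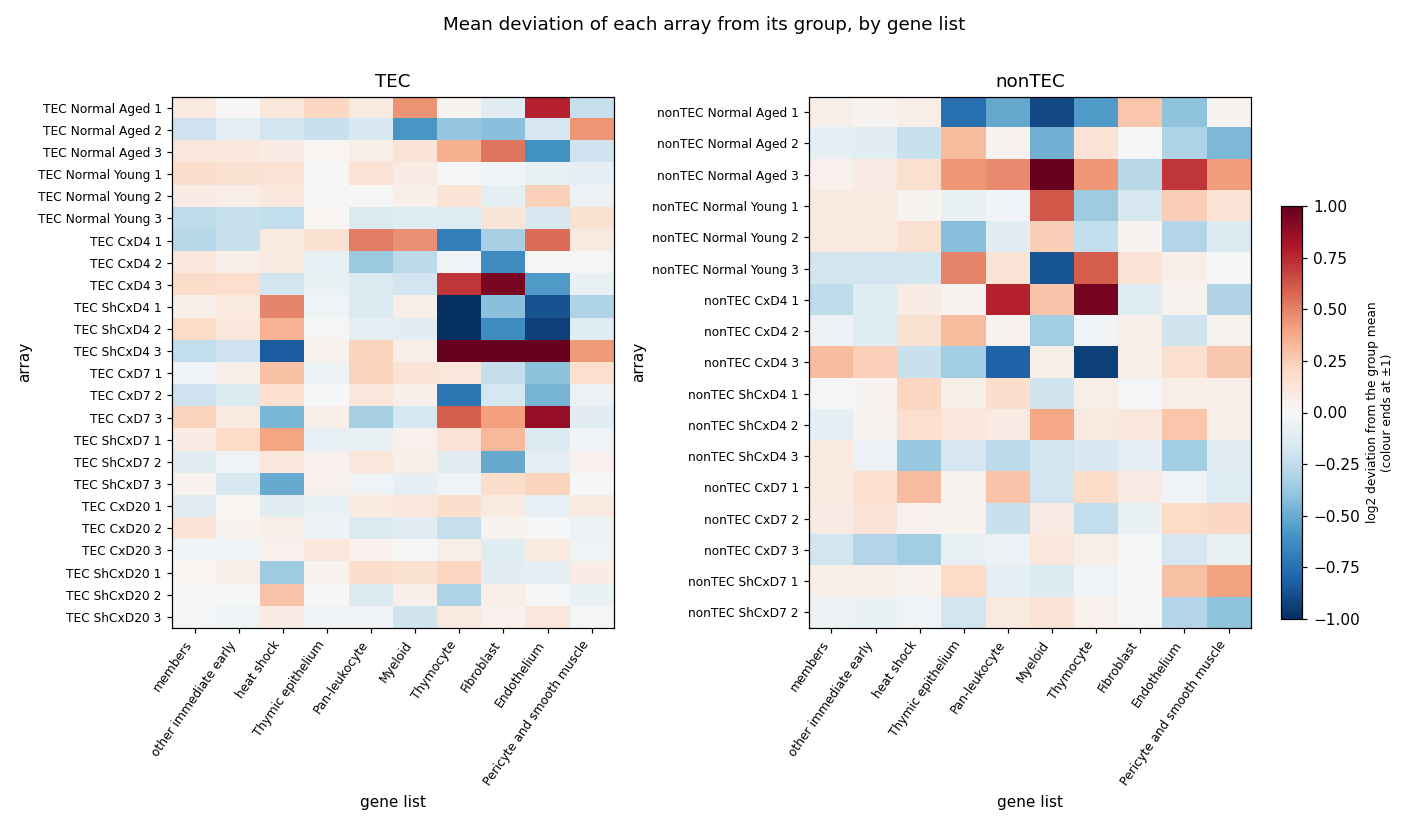
Mean deviation from the group mean (log2, colour, ending at 1 in either direction) of each array, in rows, for the 10 genes ("members") and 9 other lists, in columns, with 1 panel a fraction. The column of the 10 genes is paler than those of thymocyte, fibroblast and endothelial genes, and ran from -0.28 (CxD4 array 1) to 0.23 (CxD7 array 3) in TEC.

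The genes whose levels ran most like the mean profile of the 10 were found by Pearson correlation over the arrays of a fraction, with no test. In TEC they were Socs3 (r = 0.91), Nfkbiz (0.89), Dusp6 (0.88), Pdk4 (0.88), Rhou (0.87) and Errfi1 (0.86), among 8185 genes over 24 arrays. In nonTEC they were Ccno (0.90), Gja1 (0.88), Slc10a6 (0.87), Map3k8 (0.87), Zc3h12a (0.86) and Itpkc (0.86), among 7761 genes over 17 arrays. The 6 names of one fraction were not among those of the other. Of the 10 themselves, Jun ran closest to the profile in TEC (0.89) and Zfp36 in nonTEC (0.84), while Fos (0.27 in TEC and -0.08 in nonTEC) and Ier2 in TEC (0.09) did not follow it.

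Promoter sequences are shown for the 3 genes whose ageing difference was larger in TEC, Fosb, Klf2 and Zfp36, and for Atf3, which had the largest castration difference at day 20. They cover the 250 bases before the annotated start, from RefSeq on GRCm38.p6. The windows are chr7:19310046-19310295 (minus strand) for Fosb, chr8:72318812-72319061 (plus strand) for Klf2, chr7:28379229-28379478 (minus strand) for Zfp36 and chr1:191183334-191183583 (minus strand) for Atf3. Each is written 5′ to 3′ on the strand of its gene, and capitals mark the motifs found on either strand.
Fosb: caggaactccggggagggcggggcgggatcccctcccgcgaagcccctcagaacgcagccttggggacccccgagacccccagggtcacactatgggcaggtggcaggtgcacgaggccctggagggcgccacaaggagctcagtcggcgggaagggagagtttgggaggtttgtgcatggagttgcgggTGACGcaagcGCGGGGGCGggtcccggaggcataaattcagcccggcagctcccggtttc
Klf2: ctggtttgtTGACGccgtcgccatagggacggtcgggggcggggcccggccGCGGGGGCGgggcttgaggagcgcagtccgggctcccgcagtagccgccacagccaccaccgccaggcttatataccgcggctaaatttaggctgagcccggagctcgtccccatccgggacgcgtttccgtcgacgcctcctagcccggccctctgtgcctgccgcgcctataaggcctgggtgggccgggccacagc
Zfp36: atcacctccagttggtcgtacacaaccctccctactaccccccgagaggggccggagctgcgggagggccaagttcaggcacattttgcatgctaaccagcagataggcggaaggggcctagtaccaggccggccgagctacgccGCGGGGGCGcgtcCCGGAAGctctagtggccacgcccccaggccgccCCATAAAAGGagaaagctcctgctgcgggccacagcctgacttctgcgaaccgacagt
Atf3: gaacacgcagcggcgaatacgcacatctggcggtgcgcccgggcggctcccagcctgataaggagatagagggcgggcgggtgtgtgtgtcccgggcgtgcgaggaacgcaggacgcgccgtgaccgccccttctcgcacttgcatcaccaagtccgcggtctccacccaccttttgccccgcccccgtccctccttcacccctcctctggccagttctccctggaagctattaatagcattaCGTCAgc

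Promoters of 8 of the 10 genes were read, those of Egr1 and Ier2 were not used here, and 32851 promoters of the same length were searched. The EGR motif GCGNGGGCG was found in Fosb, Klf2 and Zfp36, as GCGGGGGCG in each, and in 4.7% of all promoters. The CRE core TGACG, which is also part of the full CRE, was found in Fosb, Fos, Junb, Klf2 and Atf3 and in 17.8% of all promoters. In Atf3 it appears on the other strand as CGTCA, 7 bases before the start. A CArG box, the motif of serum response factor, was found in Zfp36 alone, 58 bases before the start (CCATAAAAGG), and in 1.47% of all promoters, and Zfp36 also held the ETS motif CCGGAAG (6.91% of all). The full CRE TGACGTCA (1.55%), the AP-1 motif TGANTCA (6.75%) and the NF-kB motif (1.41%) were in none of the 8 windows. These matches describe letters in a window and show no binding.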

How the data were processed

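RNA of 41 samples was hybridised to Illumina arrays, after Qiagen purification and biotin labelling with an Ambion kit, per the labels' protocols. Deposited values are log2 intensities that the authors normalized, and their scale was read from the values: the base is not stated and was taken as 2, and arrays of a fraction share their quantiles, so each fraction appears normalized on its own. The submitters' processing notes name limma with no version or role. For background correction and detection filtering, no method is given in the sources used here. The number of arrays limits the precision. No array was left out.

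Probes with 1 listed gene (20825 of 24671) were used, and a gene was read from its probe of highest mean. Each of the 10 genes had 1 such probe. Genes were tested where at least 1 group mean exceeded 6.73, the median of all values. With limma 3.58.1 under R 4.3.3, 1 mean per group was fitted and the empirical Bayes step used a trend, in TEC (16 residual degrees of freedom), in nonTEC (11) and, for differences between fractions, over all 41 arrays (27, 8487 genes). Adjustment was by Benjamini-Hochberg over all genes tested. The fit was tested on simulated data. The members, the lists and the comparisons were chosen with earlier results of these data known.

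The 10 genes are named in every comparison. Of the other lists, up to 6 genes past the threshold are named by smallest p, and the 6 genes most like the mean scaled profile of the 10 in each fraction. Alternatives were filters on dim probes, quantile normalization, averaging a gene over its probes, and weights on arrays. Others were a fit with no trend, fits of only the arrays compared, other controls, a replicate block, and leaving out arrays singly or in sets. Replicate numbers are shared between groups, and the deviations of same-numbered arrays correlated weakly (between -0.20 and 0.26). The numbers were not taken as pairs. For TEC castration at day 4 all same-numbered pairs were weakly positive (0.17, 0.05 and 0.19), and a replicate block left its count at 1 gene. Figures and promoter searches used Python 3.11.15.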

Additional observations from a re-analysis of the deposited data

Results flagged for a closer look

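The ageing difference was larger in TEC than in nonTEC for Fosb (by 1.71), Klf2 (by 1.41) and Zfp36 (by 1.15), each by the test of the difference itself in limma over all 41 arrays. Over all genes tested, 11.2% passed and 7.78% were larger in TEC. The Klf2 call was lost when any of several single arrays was left out (adjusted p between 0.0540 and 0.109). The castration difference at day 4 was larger in TEC than in nonTEC for Junb (by 0.94) by the same kind of test, where 9.13% of all genes passed and 5.69% were larger in TEC. This Junb call was lost when any 1 of 7 arrays was left out.

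The castration difference in TEC at day 20 was set against the mean of those at days 4 and 7, by a test of the difference between days. It was lower at day 20 for Fosb (-2.74), Atf3 (-2.26), Klf2 (-2.18), Jun (-1.67), Zfp36 (-1.34), Junb (-1.25) and Ier3 (-1.21). Over all genes tested, 22.9% passed and 10.7% were lower. Ier2 (-1.55) is not counted, since it entered the test only through its day-20 groups. Its levels at days 4 and 7 lay below the filter on dim probes. This comparison was chosen after the data were seen, and all day-20 arrays differ widely from the other TEC arrays.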

How the results depend on the processing

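Of 183 counts of the 10 genes under alternatives that left out no array singly, 161 stayed within 1.5 times the reported count and 22 did not. The count of genes lower in castrated TEC at day 20 and that of genes with an ageing difference larger in TEC stayed within that range. Single genes within them did not all stay: without the day-20 arrays Klf2 was lost from the ageing difference between fractions (1.41, adjusted p = 0.0563), and Ier2 turned sign at day 20 against unoperated controls. Fitting only the arrays compared left 1 gene for TEC ageing (Zfp36), where 8 of all genes passed, 0 for TEC castration at day 4, 1 for nonTEC castration at day 7 and 1 for TEC sham surgery. Array weights, whose estimation did not fully converge, gave 5 genes for TEC castration at day 4, 2 at day 7, 2 for nonTEC castration at day 4 and 1 at day 7, 6 for TEC sham surgery, 10 for sham day 20 against earlier days, 8 for any nonTEC group, and 6 and 1 for the castration difference between fractions at days 4 and 7. Without the 4 TEC arrays said to stand apart in an earlier analysis, the counts were 0 for TEC castration at day 4, 1 at day 7, 6 for TEC sham surgery and 0 for the day 4 difference between fractions. Unoperated in place of sham controls gave 0 for TEC castration at day 4, 1 at day 7 and 4 for nonTEC at day 7. Without the day-20 arrays, TEC castration at day 4 had 0, and quantile normalization gave 1 for nonTEC at day 4. The causes were not tested.

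Leaving out each array in turn gave 5 to 7 genes for TEC ageing, 2 to 3 for nonTEC ageing, 8 to 9 for TEC castration at day 20, 0 to 4 at day 4 and 0 at day 7, 0 to 2 for nonTEC castration at day 4 and 0 at day 7. It gave 1 to 4 for TEC sham surgery, 0 in nonTEC, 4 to 7 for sham and 8 for castrated day 20 against earlier days, 8 to 9 for any TEC and 3 to 7 for any nonTEC group. For differences it gave 2 to 3 for ageing between fractions, 0 to 4 and 0 for castration between fractions at days 4 and 7, 5 to 7 for CxD20 against young, and 8 to 9 for day 20 against days 4 and 7. These counts and those under the alternatives include Ier2 where it passed, also where it is left out above.

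Of 1769 values of single genes under the same alternatives, 40 had the opposite sign to the reported value. In 37 neither value passed the threshold, among them Atf3 in TEC castration at day 4 without the 4 TEC arrays (-0.18) and Egr1 at day 20 against unoperated controls (0.0085). The 3 with a value past the threshold were Fos in TEC ageing (0.53) and in the ageing difference between fractions (0.68) without the 2 arrays of low Fos, and Ier2 in castration at day 20 against unoperated controls (0.92). The unoperated levels of Ier2 lay below the filter. The replicate block left all counts unchanged, for example 7 genes for TEC ageing and 8 for castration at day 20. Brightness near the top of the scale limits most of these genes, and low signal limits Ier2.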
